A study of Sus scrofa with 41 samples.

Results

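The nuclear-encoded respiratory chain subunits are the genes of the cell nucleus whose proteins build complexes I to V of the inner mitochondrial membrane. They were taken by name alone, from pig gene symbols that begin with NDUFA, NDUFB, NDUFC, NDUFS or NDUFV and a number, with UQCR, with COX4 to COX8 or with ATP5, plus the 4 SDH genes. The files held 63 such genes among 25880. By symbol, 29 were assigned to complex I, 4 to complex II, 6 to complex III, 13 to complex IV and 11 to complex V. NDUFA4 and its paralogue NDUFA4L2 were thus counted with complex I. Other members of these families, such as NDUFS7, NDUFA13, COX6B1 and ATP5F1B, were not analysed here.

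Complexes I and II pass electrons from NADH and succinate to ubiquinone, complex III hands them to cytochrome c, and complex IV gives them to oxygen. Complexes I, III and IV pump protons as they do so, and complex V, the ATP synthase, uses the proton gradient to make ATP. In skeletal muscle the amount of this machinery differs between oxidative and glycolytic fibres, and all complexes other than complex II also hold subunits encoded in the mitochondrial genome.

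RNA was sequenced from the psoas major, a loin muscle, of 41 purebred uncastrated male pigs, with 1 library per pig. The 13 Danbred Duroc pigs were 131 to 156 days old (median 148) at sampling and the 28 Danbred Landrace pigs 147 to 166 days (median 154.5). Both breeds were fed ad libitum at a breeding station, with no treatment named beyond the feeding test, and the feed conversion ratio (FCR) was 1.83 to 2.18 in Duroc (median 1.94) and 1.92 to 2.25 in Landrace (median 2.1). The study defines FCR as feed per gain in one place and as gain per feed in its methods. Values near 2 have the size of feed eaten per weight gained, under which a high FCR is a low feed efficiency, and under the other definition the reading of every FCR slope is turned round. RNA integrity numbers (RIN), on which a low value marks degraded RNA, ran from 7 to 8.8 in Duroc and from 6.5 to 8.3 in Landrace. The labels give 5 batches without saying what they are, and batch 1 holds 1 Duroc and no Landrace pig.

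Between 22188911 and 25954816 read pairs per pig fell on genes. The skeletal muscle markers ACTA1, CKM, MYL1 and DES summed to between 108765 and 198846 CPM (counts scaled to the TMM-adjusted library size, the unit of every level given here) in all pigs, so the defining markers of the labelled tissue were present. Of the 6 pigs with RIN below 7.5, 5 were in batch 5 and 5 were Landrace. The TMM factors that scaled the libraries lay between 0.650 and 1.24 and followed RIN (Pearson r = 0.777 and Spearman rho = 0.543 over 41 pigs, which share the batches).

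All members together took 0.518% to 0.782% of the gene counts of a Duroc pig (median 0.638%) and 0.404% to 0.857% of those of a Landrace pig (median 0.552%). The ranges of the breeds overlapped. Of the 63 members, 60 passed the filter on low counts, each with at least 31 counts in every pig, among 11146 genes tested. The remaining 3 were COX6B2, the testis isoform of a complex IV subunit, with 0 to 16 counts per pig, and NDUFA2 and NDUFB7, accessory subunits of complex I that were listed at 0 in every pig.

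The authors' unstranded counts drop a read pair that lies on genes of opposite strands, while the strand-specific columns of the same files keep it. There NDUFA2 had 346 to 704 counts per pig (median 484) and NDUFB7 had 1026 to 2166 (median 1468). For 8 of the 61 members with an average of at least 5 counts (13.1%) the strand-specific columns together held over 2 times the unstranded count, against 6.79% of 12845 genes. NDUFB10, an accessory subunit of complex I, stood farthest apart with a ratio of 18.8, followed by COX6A1 (4.48), NDUFV1 (3.65), NDUFB9 (3.19), COX6A2 (2.66), ATP5MK (2.56), COX7A1 (2.31) and NDUFB1 (2.23). The unstranded levels of these genes leave out the read pairs that lie on genes of opposite strands. Since the library carries no strand, the strand-specific columns can also hold pairs of the overlapping gene, and the share of such pairs was not tested.

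Nearly every respiratory chain gene was higher in the pigs with lower RIN. In a model of FCR, RIN, age, breed and batch fitted to all 11146 genes, with a false discovery rate (FDR) under 0.1 as the threshold, 57 of 60 members fell as RIN rose and 0 rose, where 27.9% of all genes fell and 23.9% rose. Coefficients were below 0 for 57 members, against 51.1% of all genes. The median slope was -0.55 on the log2 scale per unit of RIN over the members and -0.01 over all genes tested.

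**Figure D1:**
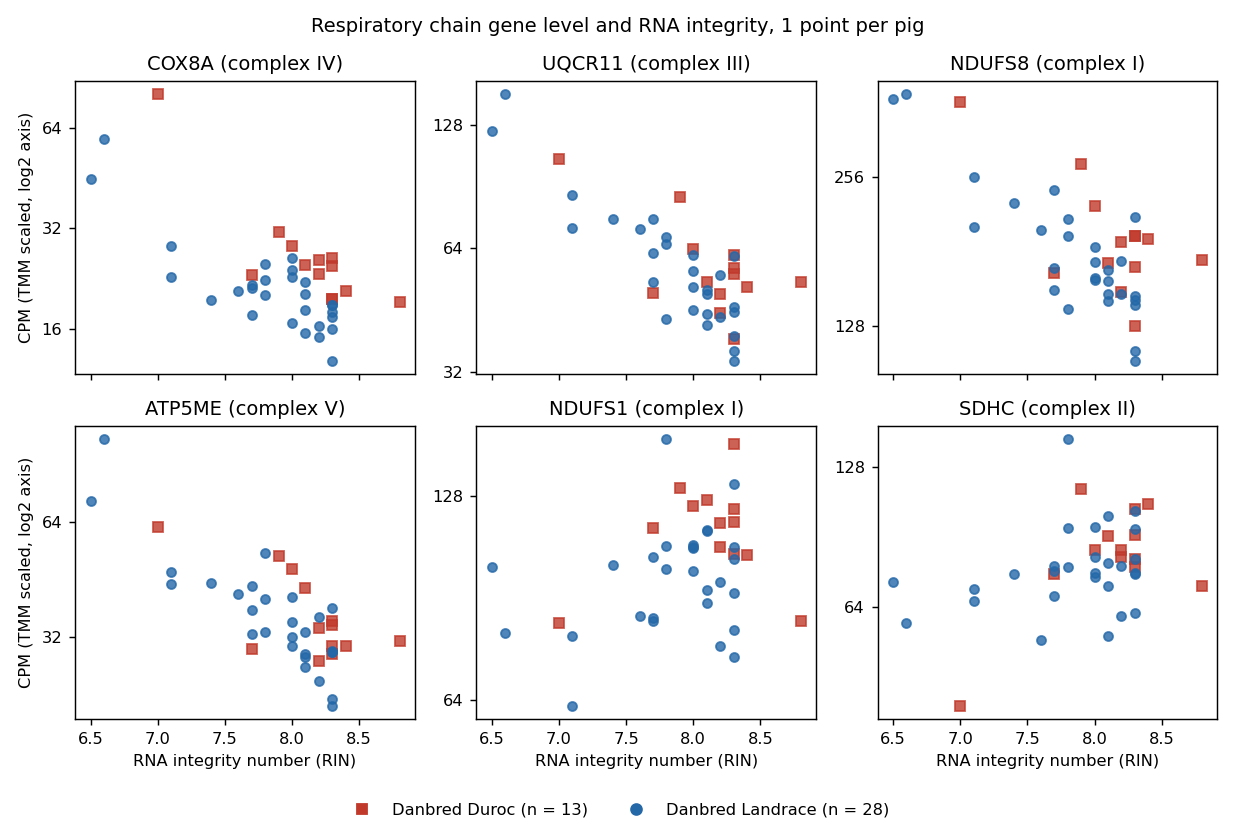
Level of 6 respiratory chain genes in each of 41 pigs (CPM after TMM scaling, log2 axis) against RIN, with squares for 13 Danbred Duroc and circles for 28 Danbred Landrace pigs. COX8A, UQCR11, NDUFS8 and ATP5ME are highest at the left, where RIN is low, while NDUFS1 and SDHC are not.

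COX8A (ENSSSCG00000013046), a small subunit of complex IV, had the smallest p. Its level was 19.6 to 81 CPM (median 36.7) in the 6 pigs with RIN below 7.5, 17.6 to 31.1 (median 21.6) in the 9 pigs between 7.5 and 7.9, and 12.8 to 28.4 (median 19.7) in the 26 pigs of 8 or more. Of the 6 pigs, 4 lay above every pig of the top band, so that the bands overlapped. The slope was -0.99 ± 0.09 (SE) on the log2 scale per unit of RIN (edgeR quasi-likelihood test, FDR 3.27e-09).

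UQCR11, a small subunit of complex III, separated the bands more cleanly. It ran from 71.8 to 152 CPM (median 95.8) below RIN 7.5, from 43 to 85.2 (median 65.6) in the middle band and from 34 to 63.7 (median 50.1) at 8 or more. All 6 pigs of low RIN lay above all 26 of the top band. Its slope was -0.89 ± 0.09 (SE), with an edgeR FDR of 7.73e-09.

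COX4I1, the common isoform of the largest nuclear subunit of complex IV, went from a median of 556 CPM (398 to 885) in the pigs of low RIN to 267 CPM (161 to 400) in the top band. NDUFS5, an accessory subunit of complex I, went from 58.4 CPM (41.7 to 103) to 30.8 CPM (24.4 to 45.3). NDUFS8, an iron-sulfur core subunit of complex I, went from 309 CPM (203 to 375) to 163 CPM (109 to 224). In each of these 3 genes the 6 pigs of low RIN lay above the median of the top band, and 4 or 5 of them above its highest pig. Their slopes per unit of RIN were -0.94, -0.75 and -0.76.

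The 3 members that were not called with RIN were the core subunits NDUFS1 (0.05 ± 0.09), SDHC (0.17 ± 0.12) and UQCRC2 (0.01 ± 0.10), with log2 slopes ± SE per unit of RIN. NDUFS1, the largest subunit of complex I, was at 62.8 to 101 CPM (median 81.8) in the pigs of low RIN and at 74.1 to 153 (median 107) in the top band, and all 6 low-RIN pigs lay below that median. SDHC, one of the membrane anchors of complex II, was likewise at 39.2 to 75.4 CPM (median 67.9) against 55.5 to 107 (median 81.1). The raw levels of both genes therefore ran the other way from those of COX8A, while their fitted slopes were within 2 standard errors of 0.

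The median slopes of the complexes are given as a description, since the slopes of their members overlapped and no difference between complexes was tested. Complex IV had a median of -0.76 with 12 of 12 called lower, complex III -0.58 with 5 of 6, complex I -0.55 with 26 of 27, complex V -0.38 with 11 of 11 and complex II -0.33 with 3 of 4. The median was -0.34 over 14 core subunits, of which 11 were called lower, and -0.63 over the other 46 members, all called lower (27.9% of all genes). In complex I alone it was -0.34 over 6 core subunits and -0.56 over the 21 other genes counted there, NDUFA4 and NDUFA4L2 among them. The core subunits NDUFS3 and NDUFS8 nevertheless had the steepest slopes of that complex. The difference between core and other subunits was not tested.

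Among the core subunits that fell with RIN, the slopes (log2 per unit of RIN) were -0.76 for NDUFS3, -0.34 for NDUFV2, which carries an iron-sulfur cluster, and -0.35 for NDUFV1, which binds NADH. In complex II, SDHA, the flavoprotein that oxidises succinate, had -0.50, SDHB -0.41 and SDHD -0.24. UQCRC1 of complex III had -0.50 and the Rieske iron-sulfur protein UQCRFS1 -0.35. In complex V the slopes were -0.27 to -0.33 in the catalytic head (ATP5F1A, ATP5F1C and ATP5F1D). The stalk subunits ranged from -0.26 (ATP5PB) over -0.33 (ATP5PO) to -0.67 (ATP5PF). The c subunit genes ATP5MC1 and ATP5MC3 had -0.75 and -0.38, and the small membrane subunits ATP5MK and ATP5ME -0.81 and -0.85. Without 1 Landrace pig of batch 2, which had the lowest RIN (6.5), ATP5F1A was at -0.16, ATP5MC3 went from -0.38 to -0.22 and NDUFB5 from -0.25 to -0.17, and none of these 3 was called (edgeR FDR 0.295, 0.287 and 0.179). The least steady call with RIN was COX7A2L, counted with complex IV. Its slope was -0.16, and it was called in 14 of 41 fits that each left out 1 pig.

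**Figure D2:**
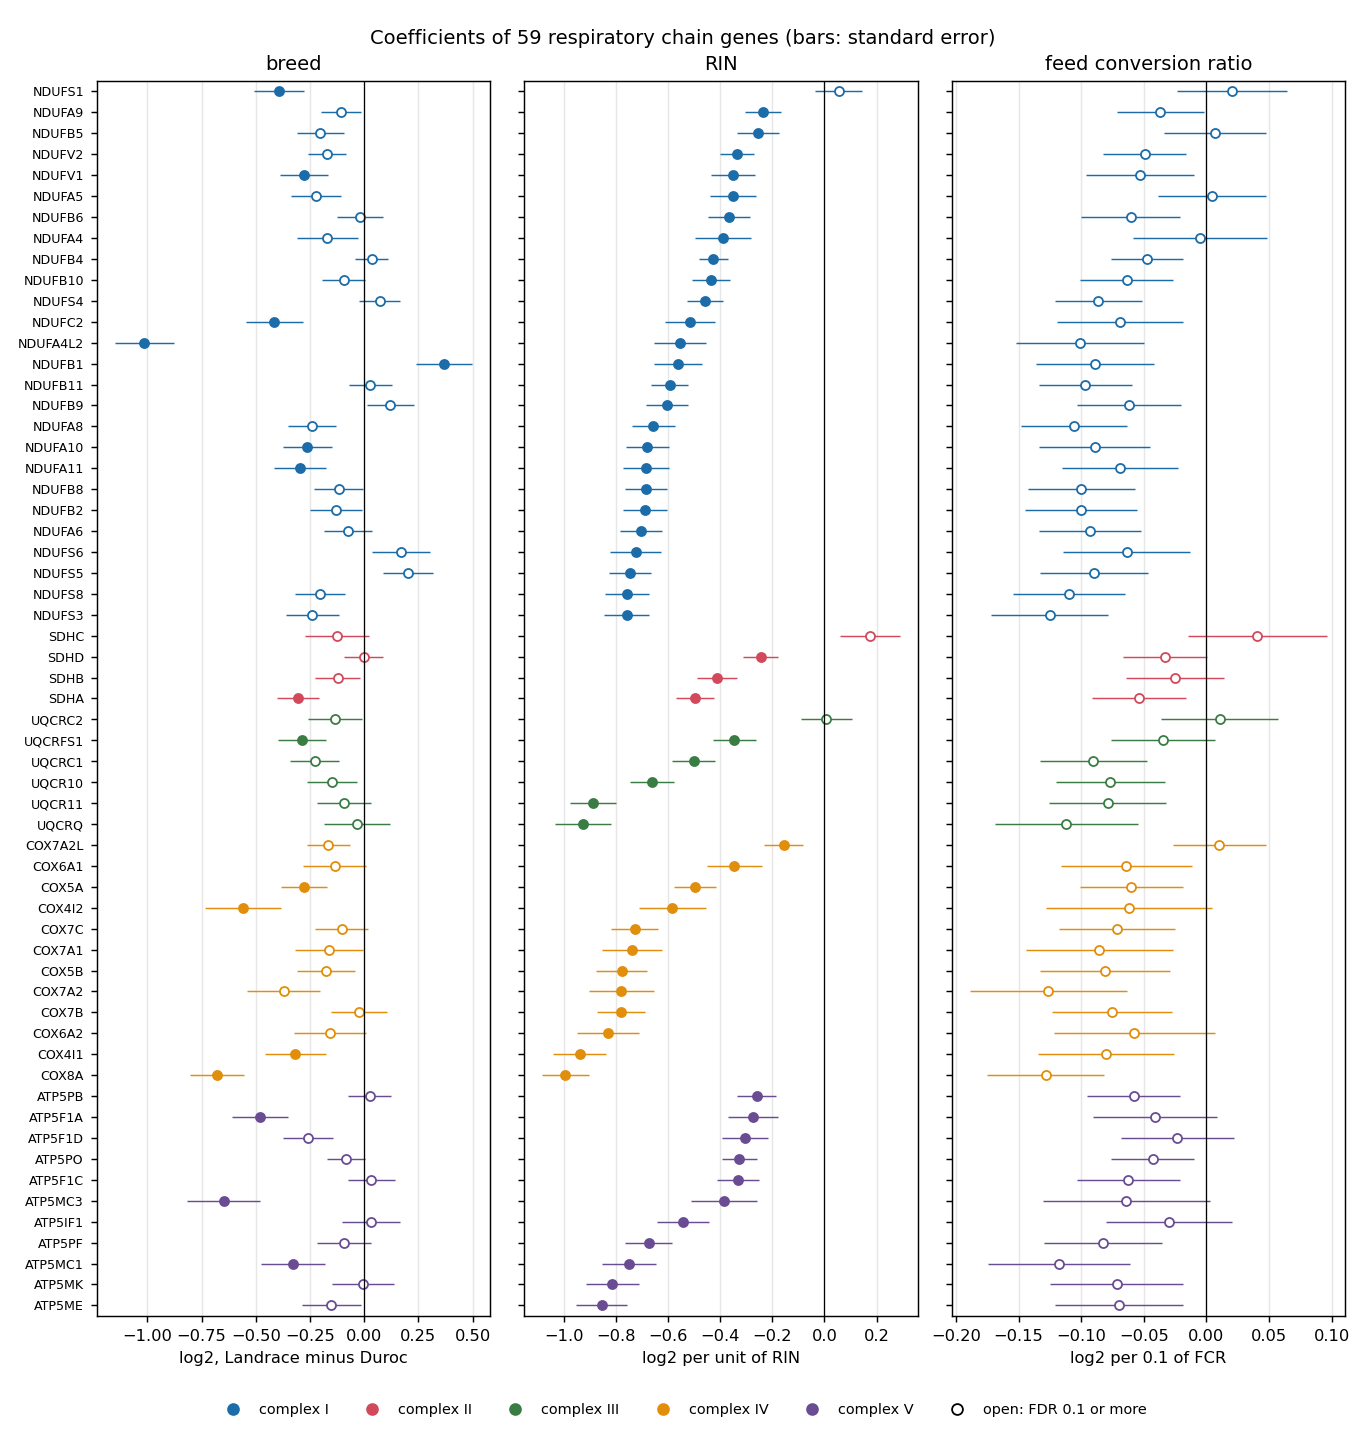
Fitted coefficients with standard errors of 59 respiratory chain genes for breed (left), RIN (middle) and FCR (right), coloured by complex, on log2 axes whose ranges differ. Filled points passed FDR 0.1: 16 for breed, 56 for RIN and 0 for FCR, and the 3 open points in the middle are NDUFS1, SDHC and UQCRC2.

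The relation with RIN did not rest on the most degraded samples alone. Without the 6 pigs of RIN below 7.5, an alternative added after the data had been seen, 47 members still fell and 0 rose (5.18% of all genes fell), with a median slope of -0.61. COX6A1 then had a slope of 0.07, not called. In Landrace alone 56 members fell (23.1% of all genes). In Duroc alone, with 13 pigs, 0 passed FDR 0.1 in edgeR, 54 coefficients were below 0 and 23 had an unadjusted p under 0.05 with a negative slope (7.17% of all genes). The 15 pigs of batch 2 alone gave 55 that fell (17.3% of all genes) and the 11 pigs of batch 5 gave 34 that fell and 2 that rose (13.7% of all genes fell).

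Whether the RIN slope differed between breeds was tested with an interaction term. It passed FDR 0.1 for 0 of 60 members and for 0% of all genes in edgeR, and 0 members had an unadjusted p under 0.05 (4.85% of all genes did). Coefficients were below 0 for 46 members and for 53% of all genes.

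The scaling of the libraries set the zero point of these slopes. With library size alone the median slope of all genes moved to 0.30 and 36 members fell while 3 rose (7.91% of all genes fell). The members' median lay 0.54 below that of all genes with either scaling. Other mitochondrial transcripts moved along: the 13 mitochondrially encoded subunits all fell, with a median of -0.94, and summed to 179986 to 452377 CPM in the 6 pigs of low RIN against 68682 to 219784 in the other 35. The 5 slow fibre markers (MYL2, MYL3, TNNT1, TNNI1 and TNNC1) all fell, with a median of -0.73, and their sum was 6380 to 12539 CPM in the 6 pigs and 1352 to 16719 in the others. Of 4 fast fibre markers 3 fell as well (TNNI2 -0.65, TNNC2 -0.56 and TNNT3 -0.50) and ATP2A1 rose (0.66), and their sum was 42389 to 69672 CPM in the 6 pigs and 18172 to 48537 in the others. Of other cells, HBB of red blood cells (-1.26) and 1 of 5 leukocyte markers (CD3E, -0.67) fell, while 2 of 5 fibroblast markers rose (COL3A1, 0.93, and PDGFRA, 1.62). The part of these lists in the members' slopes was not tested.

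Fewer members differed between the breeds. With RIN, FCR, age and batch in the model, 16 of 60 were lower in Landrace than in Duroc and 1 was higher, where 17.5% of all genes were lower and 15.6% higher. Coefficients were below 0 for 50 members against 50.4% of all genes. The median difference was -0.15 on the log2 scale over the members and -0.002 over all genes.

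NDUFA4L2 (ENSSSCG00000027621; Sscrofa11.1, chr5:22540482-22548418 in RefSeq), a hypoxia-inducible paralogue of NDUFA4, differed most. It was at 8.14 to 25.8 CPM (median 12.6) in Duroc and 5.02 to 17.3 CPM (median 8.40) in Landrace. The breeds overlapped, but 27 of 28 Landrace pigs lay below the Duroc median and 12 below the lowest Duroc pig. The fitted difference was -1.01 ± 0.14 (SE), with an edgeR FDR of 2.42e-06.

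COX8A was at 19.3 to 81 CPM (median 24.7) in Duroc and 12.8 to 59.5 (median 20.3) in Landrace, and 12 Landrace pigs lay below the lowest Duroc pig. Its difference was -0.68 ± 0.12 (SE; edgeR FDR 1.72e-04). ATP5MC3, one of the genes for the c subunit of the ATP synthase rotor, was at 45.9 to 97.2 CPM (median 54) in Duroc and 25.4 to 91.2 (median 45) in Landrace. In this gene 16 Landrace pigs lay below every Duroc pig, and the difference was -0.65 ± 0.17 (SE; edgeR FDR 0.00499).

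ATP5F1A, the alpha subunit of the catalytic head, was at 332 to 599 CPM (median 470) in Duroc and 236 to 605 (median 390) in Landrace. NDUFS1, a core subunit of complex I, was at 83.2 to 153 CPM (median 117) and 62.8 to 155 (median 99.5). Both were lower in Landrace, by differences of -0.48 ± 0.13 and -0.39 ± 0.11 (SE; edgeR FDR 0.00592 and 0.0110), with 24 and 26 of 28 Landrace pigs below the Duroc median.

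**Figure D3:**
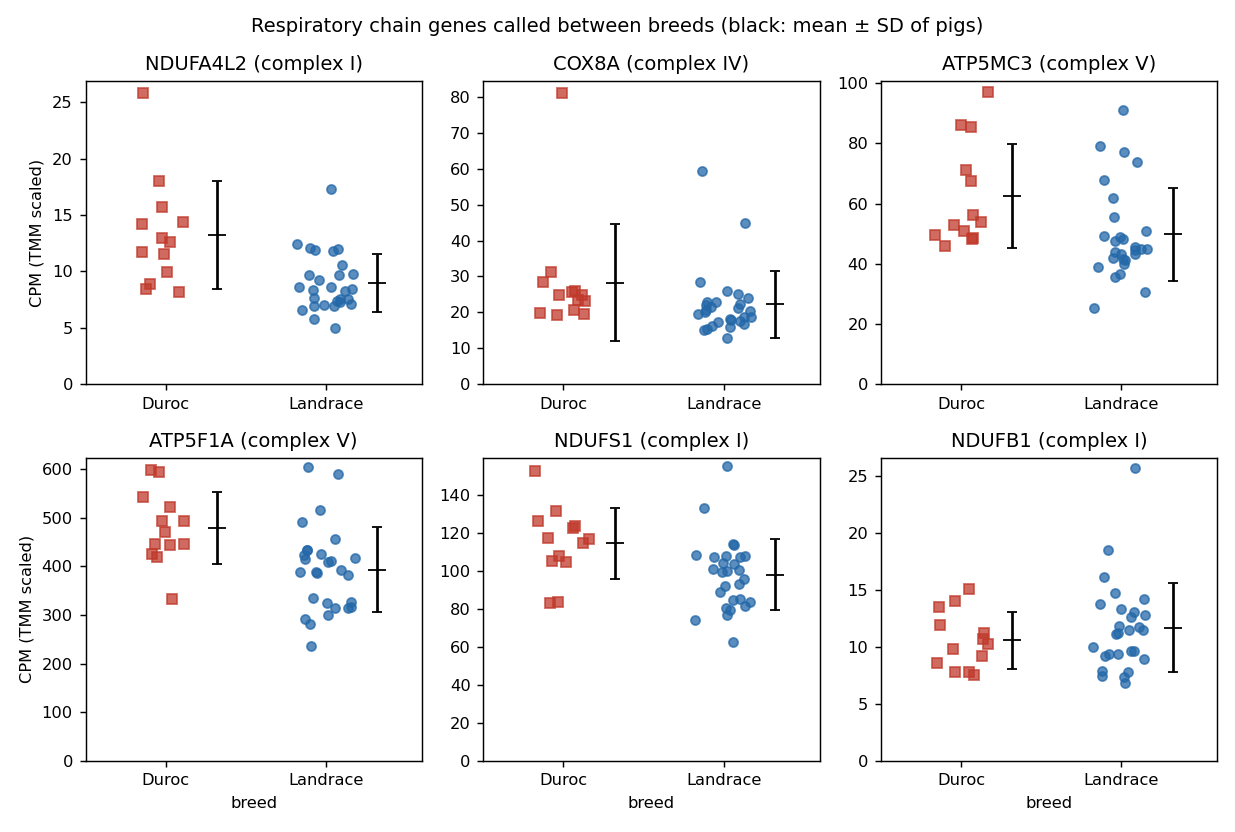
Level of 6 members in each pig (CPM after TMM scaling, axis from 0) by breed, with squares for 13 Duroc and circles for 28 Landrace pigs and black bars for mean ± SD. NDUFA4L2, COX8A, ATP5MC3, ATP5F1A and NDUFS1 are lower on average in Landrace and NDUFB1 slightly higher, and in all 6 the breeds overlap.

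The 1 member higher in Landrace was NDUFB1 (chr7:113652772-113659937), an accessory subunit of complex I, at 6.84 to 25.7 CPM (median 11.4) against 7.55 to 15.1 (median 10.2) in Duroc. Its fitted difference of 0.37 ± 0.13 (SE, edgeR FDR 0.0322) came from the unstranded counts, and from the strand-specific columns it was 0.06 and not called. NDUFB10 was at 0.43 and called in those columns but at -0.10 in the unstranded ones.

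Of all genes 17.5% were lower in Landrace. The members lower there were 7 of 27 in complex I, 1 of 4 in complex II (SDHA, -0.31) and 1 of 6 in complex III (UQCRFS1, -0.29). They were 4 of 12 in complex IV and 3 of 11 in complex V. In complex I these included NDUFC2 (-0.41), NDUFA11 (-0.30), NDUFV1 (-0.28) and NDUFA10 (-0.26). Complex IV added COX4I2 (-0.56), COX4I1 (-0.32) and COX5A (-0.28), and complex V added ATP5MC1 (-0.33), a further gene of the c subunit. The call of COX4I2 came from the adjusted model, while its unadjusted medians were 2.53 CPM in Duroc and 2.52 in Landrace. In that gene 14 of 28 Landrace pigs lay below the Duroc median. All 14 core subunits had a negative coefficient (50.4% of all genes), and 6 of them were called lower (17.5% of all genes).

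The breed difference was also fitted within the batches that hold enough pigs. In batch 2, with 12 Landrace and 3 Duroc pigs, the median was -0.44 and 28 members were lower (6.85% of all genes), while in batch 5, with 7 and 4, it was 0.10 and 1 member was lower (5.35% of all genes). Of the 60 members, 44 lay below 0 in batch 2 and above 0 in batch 5, and 14 were below 0 in both. NDUFA4L2 was called in both, at -0.86 and -1.10. COX8A had -0.67 and -0.61, called in batch 2. ATP5MC3 went from -1.30 to -0.23 and ATP5F1A from -0.93 to -0.16, called in batch 2 alone.

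A breed by batch term over the 26 pigs of batches 2 and 5, added after the data had been seen, tested the difference between these batches. It passed FDR 0.1 for 0 of 60 members and for 0.0182% of all genes (edgeR), and 26 members had an unadjusted p under 0.05, all with a less negative difference in batch 5, against 4.68% of all genes with a higher coefficient. The smallest p was that of UQCRC1 (0.60, p = 0.00142, FDR 0.265). Batches 1, 3 and 4 hold 1 to 3 Duroc pigs each and were not fitted alone.

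**Figure D4:**
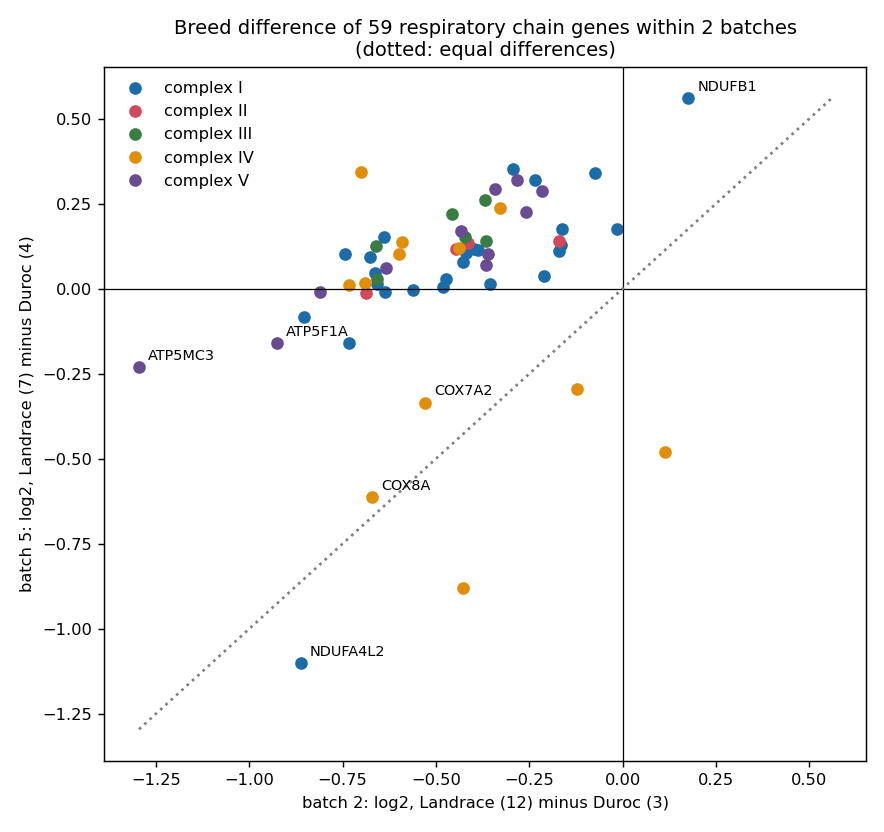
Difference between Landrace and Duroc (log2) of each of 59 members in batch 2 (horizontal) and batch 5 (vertical), coloured by complex, with a dotted line of equal differences. Most points lie to the left of 0 and above 0, and NDUFA4L2 and COX8A lie near the dotted line.

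The count also moved with single pigs, to 10 without 1 Duroc pig of batch 2 (FCR 2.08, RIN 8.3) and to 11 without 1 Landrace pig of batch 2 (FCR 1.98, RIN 8.3). Without that Duroc pig NDUFA10 and NDUFV1 were both at -0.15, COX4I1 and ATP5MC1 at -0.21 and COX5A at -0.19, none of them called (edgeR FDR 0.257 to 0.401). The calls of NDUFA11 (-0.23), SDHA (-0.21) and UQCRFS1 (-0.20) were lost as well. Over the 41 fits that each left out 1 pig, ATP5MC1 was called in 11, COX4I1 in 17 and NDUFA10 in 23, while NDUFA4L2, COX8A, ATP5MC3, ATP5F1A and NDUFS1 were called in all 41. With library size alone 42 members were lower in Landrace (32.3% of all genes). The members' median then lay 0.15 below that of all genes, as it did with TMM.

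Markers of other cells differed between the breeds too. The 3 endothelial markers (PECAM1, CDH5 and KDR) were all lower in Landrace, with a median of -1.01, and summed to 47.7 to 145 CPM in Duroc and 27.2 to 120 CPM in Landrace. The 5 slow fibre markers had differences of -0.53 to -0.79, of which 1 passed the threshold, while 3 of 4 fast fibre markers (TNNT3, TNNI2 and TNNC2) were higher, as were 3 of the 4 skeletal muscle markers (ACTA1, CKM and MYL1). All 5 fibroblast markers had differences below 0, with a median of -0.84 and 1 called (PDGFRA, -1.22), and their sum was 556 to 4200 CPM in Duroc and 549 to 12329 in Landrace. ADIPOQ of adipocytes (-2.67) and MYH6 among the cardiac markers (-0.75) were called lower too, FABP4, the other adipocyte marker tested, had a difference of 0.25 and was not called, and 0 of 5 leukocyte markers were called in edgeR, with 0 at an unadjusted p under 0.05. None of 13 mitochondrially encoded subunits was called in edgeR, and 0 had an unadjusted p under 0.05. The part of these cells in the members' differences was not tested, and in bulk muscle fewer cells of a type and less RNA per cell cannot be told apart.

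The ratios of isoform pairs within a library overlapped between the breeds. The log2 ratio of COX6A2, the heart and skeletal muscle isoform, to COX6A1 was 2.99 to 4.37 in Duroc (median 3.49) and 2.58 to 4.57 in Landrace (median 3.53). That of COX7A1, the muscle isoform, to COX7A2 was 2.57 to 3.61 (median 3.10) against 2.64 to 4.01 (median 3.06). The ratio of COX4I2, the lung isoform, to COX4I1 had medians of -7.12 and -6.75, while the unadjusted medians of COX4I2 were 2.53 and 2.52 CPM. These are ratios of counts and not of levels per length, and COX6A1, COX6A2 and COX7A1 are among the genes with overlap losses.

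NDUFA4L2 to NDUFA4 went from -5.16 to -3.53 in Duroc (median -4.50) to -5.78 to -4.29 in Landrace (median -4.86), with overlapping ranges. ATP5MC3 to ATP5MC1 had medians of -1.28 and -1.44. No test was run on these ratios. NDUFA4 itself, which is named for complex I but is known as a complex IV subunit, had a breed difference of -0.17 ± 0.14 (SE; edgeR FDR 0.395).

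Summed over a complex, the level overlapped between breeds in each case. The 27 tested genes of complex I summed to 1682 to 3097 CPM in Duroc (median 2009) and 1339 to 3431 in Landrace (median 1937). Complex V, with 11 genes, summed to 1243 to 2154 CPM (median 1589) against 928 to 2211 (median 1423). The medians of the other complexes were 546 and 501 CPM for complex II, 731 and 673 for complex III and 1216 and 1113 for complex IV. Sums of different complexes hold different genes and are not levels per length, so they were not ranked.

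For feed conversion ratio, no member and no gene of the 11146 tested passed FDR 0.1 in edgeR (0%), nor did any member in DESeq2 or limma-voom. Of the 60 member coefficients 54 were below 0 (48.5% of all genes). The members rose and fell together across pigs, with a median correlation of 0.678 after the covariates were removed. Counts of members are therefore not counts of separate observations. At an unadjusted p under 0.05 there were 12 members, all lower (4.41% of all genes lower, 4.27% higher), 13 with DESeq2 and 15 with limma-voom. The median slope was -0.064 on the log2 scale per 0.1 of FCR over the members and 0.003 over all genes.

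The complexes had median slopes of -0.078 (III), -0.073 (IV), -0.069 (I), -0.062 (V) and -0.029 (II) per 0.1 of FCR. Of the 12 members under p = 0.05, 9 belonged to complex I and 1 each to complexes III (UQCRC1), IV (COX8A) and V (ATP5MC1). COX8A had the smallest p, with a slope of -0.128 ± 0.047 (SE; edgeR p = 0.00931, FDR 0.529). NDUFS3 (-0.125), NDUFB11 (-0.097), NDUFA8 (-0.106) and NDUFS4 (-0.086) followed, all from complex I.

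The raw levels showed no such order within Landrace. COX8A was at 12.8 to 28.4 CPM (median 22.4) in the 7 pigs with FCR below 2.05, 15.5 to 45 (median 19.2) in the 10 pigs between 2.05 and 2.12 and 17.3 to 59.5 (median 20.7) in the 11 pigs of 2.13 or more. NDUFS3 had medians of 77.3, 76.0 and 82.0 CPM in these bands, and NDUFS4 31.8, 33.4 and 29.4. The bands overlapped widely in all 3 genes, whose levels here are not adjusted for RIN.

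The highest slopes above 0 were those of SDHC (0.041 ± 0.056) and NDUFS1 (0.021 ± 0.044), followed by UQCRC2, COX7A2L and NDUFB5, none called. COX7A2L, which joins complexes III and IV in supercomplexes, and ATP5IF1, the inhibitor of the ATP synthase, had slopes of 0.010 and -0.030 per 0.1 of FCR. Complex II thus had the median nearest to 0, but with 4 genes.

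In Duroc alone 17 members had an unadjusted p under 0.05 with a negative slope (2.11% of all genes) and in Landrace alone 0 did (3.01% of all genes), with medians of -0.116 and -0.031. The difference itself, an FCR by breed term, passed FDR 0.1 for 0 of 60 members and 0% of all genes (edgeR), and 0 members had an unadjusted p under 0.05 (5.22% of all genes). Its coefficient was above 0 for 57 members, against 50.3% of all genes.

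Single pigs moved the number of members under p = 0.05, from 12 to 1 without 1 Duroc pig (FCR 2.18, the highest of its breed), to 4 without another (FCR 1.83, the lowest) and to 6 without 1 Landrace pig (FCR 1.98). With library size alone it was 0, and 40 coefficients were below 0. The 13 mitochondrially encoded subunits had a median of -0.060 per 0.1 of FCR, 12 of 13 below 0 and 0 at p under 0.05. Of 4 fast fibre markers 3 had an unadjusted p under 0.05, all with negative slopes (TNNI2 -0.126, TNNT3 -0.110 and TNNC2 -0.104), and the median of the 4 was -0.107, while the 5 slow fibre markers had a median of 0.046 and 0 at that p. Of 2 adipocyte markers tested, ADIPOQ had a slope of 1.09 (edgeR unadjusted p = 0.0101, FDR 0.529) and FABP4 one of 0.092 (edgeR unadjusted p = 0.414). The part of these markers in the members' slopes was not tested.

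Across pigs the members rose and fell together. The median Pearson correlation of log2 CPM over the 1770 pairs of the 60 members was 0.769, and 0.678 after FCR, RIN, age, breed and batch had been removed by least squares, beside -0.004 and -0.005 over all pairs of tested genes. Both are descriptions over 41 pigs that share depth, scaling and RNA quality. With library size alone the values were 0.575 as measured and 0.62 with covariates removed, beside 0.265 and 0.132 over all pairs of genes, so that the members stood less far above the rest.

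**Figure D5:**
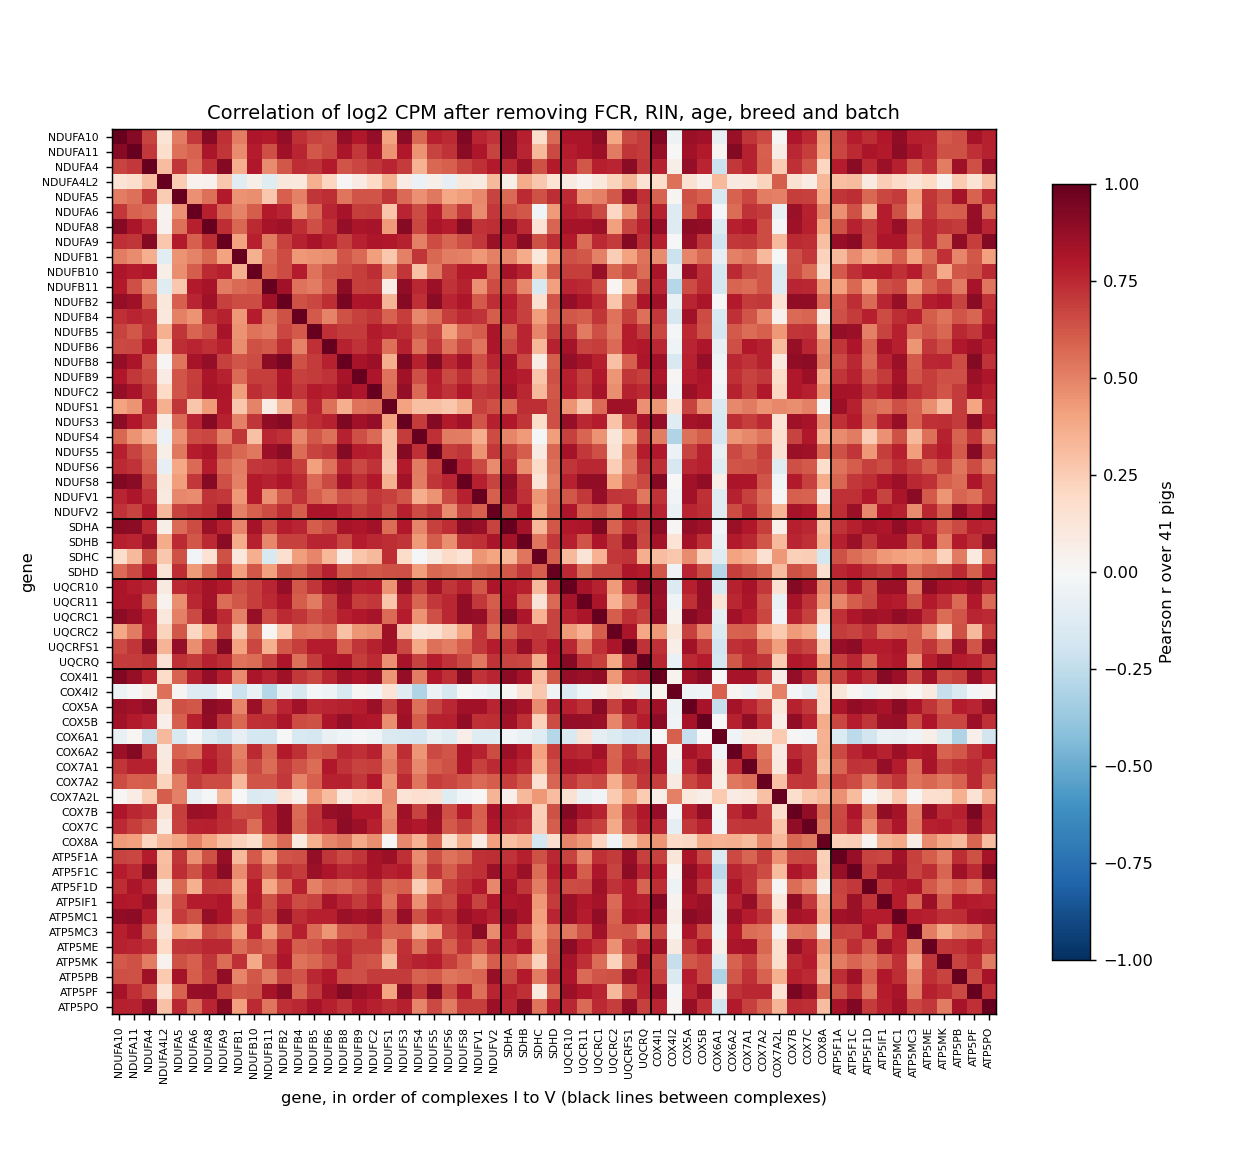
Pearson correlation over 41 pigs of each pair of 59 members in log2 CPM after removal of FCR, RIN, age, breed and batch, ordered by complex (colour scale from -1 to 1, black lines between complexes). Red covers most pairs within and between complexes, and pale lines mark NDUFA4L2, COX4I2, COX6A1, COX7A2L and SDHC.

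Membership of a complex added little. Pairs of the same complex had a median of 0.684 and pairs of different complexes 0.676, with covariates removed. Within complexes the medians were 0.73 for V, 0.729 for III, 0.686 for I, 0.613 for II and 0.46 for IV. Complex IV correlated more with complex III (0.679) than within itself.

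The highest pairs with covariates removed were NDUFB2 with NDUFB8 (0.946) and COX7B with ATP5PF (0.942), followed by NDUFB8 with NDUFS3 (0.932) and SDHA with UQCRC1 (0.931). ATP5MC1 had the highest median correlation with the other members (0.786). Among the genes the study itself had singled out as network hubs, which were picked on these samples, NDUFA10 with NDUFS8 reached 0.928.

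A few members stood aside. COX6A1 had a median correlation of -0.072 with the other members, COX4I2 of -0.017, NDUFA4L2 of 0.142 and COX7A2L of 0.171, where COX4I2 had 31 to 127 counts per pig and COX6A1 is a gene with overlap losses. Among themselves some of these correlated: COX4I2 with COX6A1 at 0.595 and with NDUFA4L2 at 0.547, and NDUFA4L2 with COX7A2L at 0.609. COX8A had a median of 0.351 and NDUFB1 of 0.472. SDHC had a median of 0.331, UQCRC2 of 0.488 and NDUFS1 of 0.499. NDUFS1 correlated at 0.738 with SDHC and at 0.850 with UQCRC2. SDHC, UQCRC2 and NDUFS1 are the 3 genes that were not called with RIN.

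The lists that follow are read beside the shares of all genes given above, 27.9% lower and 23.9% higher with RIN, 17.5% lower and 15.6% higher in Landrace, and 4.41% lower with FCR at unadjusted p under 0.05. Of the other genes of the pathway, the assembly factors, which help to build the complexes, had 16 of 32 lower and 5 higher with rising RIN, 1 lower and 1 higher in Landrace, and a median FCR slope of -0.040 with 7 at unadjusted p under 0.05, all lower. The 13 citrate cycle enzymes had 6 lower and 2 higher with RIN and 4 lower and 1 higher in Landrace, and 0 at unadjusted p under 0.05 with FCR. The regulators of mitochondrial biogenesis, 7 genes such as PPARGC1A and NRF1, had 2 lower and 2 higher with RIN and 1 lower and 2 higher in Landrace, and a median FCR slope of 0.027 with 0 at that p. Of 4 electron carriers tested, 2 were lower and 1 higher with RIN and 1 was lower in Landrace, and with FCR 1 was at that p and higher (ETFDH, 0.097).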

How the data were processed

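The authors sequenced unstranded polyA RNA (paired reads of 100 bases), trimmed it with Trimmomatic 0.39, aligned it with STAR 2.7.1a to Sscrofa11.1 with Ensembl annotation and deposited raw counts of read pairs per gene. The members and gene lists were chosen with earlier results of these data known. Symbols came from an Ensembl table (14857 IDs) and coordinates from RefSeq (Sscrofa11.1). Pigs were grouped by the breed in the labels, 1 library each, and p-values measure the spread between pigs.

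Counts were filtered with filterByExpr, scaled by TMM and fitted with the quasi-likelihood test of edgeR 4.0.16 (R 4.3.3) with FCR, RIN, age, breed and batch, and p-values were adjusted over all genes tested (Benjamini-Hochberg, threshold 0.1, the study's own). FCR slopes are per 0.1. DESeq2 1.42.0 and limma 3.58.1 were alternatives, as were other scalings, filters, covariates and subsets of pigs. The scripts were tested on simulated data. CPM are TMM scaled.

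Genes were named by the smallest p in each direction (5 for breed, RIN and FCR), as core subunits, isoform pairs, ATP5IF1, COX7A2L and hub genes of the study. One result under this rule is not reported here, and the gene it concerns is left out of the figures. Part of the rule, the highest level per length, was not applied, since transcript lengths were not used here. Unstranded counts drop pairs on genes of opposite strands, which lowers the counts of overlapping genes. Tested members had at least 31 counts in every pig, and counting error is largest for COX4I2 (31 to 127 counts).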

Additional observations from a re-analysis of the deposited data

Results flagged for a closer look

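NDUFA2 and NDUFB7, accessory subunits of complex I, were listed at 0 in the unstranded counts of every pig, and a signal stood in columns that the comparisons do not use. In the strand-specific columns the median over 41 pigs was 484 counts for NDUFA2 and 1468 for NDUFB7. In a fit of the summed strand-specific columns, added after the data had been seen, both fell as RIN rose (-0.68 and -0.73 per unit of RIN, edgeR FDR 2.72e-07 and 9.95e-08) and neither was called between breeds (-0.05 for both, FDR 0.793 and 0.785). Those columns can hold read pairs of an overlapping gene, and the share of such pairs was not tested.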

How the results depend on the processing

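The number of members called between breeds was 17 and lay within 1.5 times of that under most alternatives, but was 42 with library size only, 11 with no filter on low counts, 28 in batch 2 and 1 in batch 5. Leaving out each pig in turn gave 10 to 22. For RIN the count of 57 became 0 in Duroc pigs only and 36 in batch 5, and 53 to 57 without 1 pig. For FCR it was 0 throughout. Both interaction terms were refitted with library size only, where the count was 0 as well. The subsets hold fewer pigs; otherwise the cause was not tested. Of the genes named for positive FCR slopes, none of them called, SDHC was at -0.0118 to 0.0796 when 1 pig was left out, NDUFS1 at -0.00499 to 0.0430, COX7A2L at -0.00482 to 0.0289, UQCRC2 at -0.0203 to 0.0331 and NDUFB5 at -0.00649 to 0.0229. Values below 0 came also with batch as a number (COX7A2L -0.0020, UQCRC2 -0.0061, NDUFB5 -0.022), in Landrace (NDUFS1 -0.0014) or Duroc only (NDUFB5 -0.0115), in batch 2 (SDHC -0.059, NDUFS1 -0.00044, UQCRC2 -0.025) or 5 (NDUFB5 -0.021), with strand-specific columns (UQCRC2 -0.017) and without the 6 pigs of RIN below 7.5 (SDHC -0.037, NDUFS1 -0.028, UQCRC2 -0.041, NDUFB5 -0.013). The median correlation of the members was 0.547 in Duroc alone, where 13 pigs leave few degrees of freedom. The design holds no pairs, since each pig gave 1 library and belonged to 1 breed, so no paired analysis was run. Levels per length and promoter motifs were not run, since transcript lengths and promoter sequences were not used here.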
